A study of Mus musculus with 24 samples.

Results

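The responses of 2 mutant fibroblast genotypes were compared under the same endoplasmic reticulum (ER) stress: ATF4KO mouse embryonic fibroblasts (MEFs), called Atf4-null below, and eIF2a A/A MEFs. The quantity is a difference of responses, (Atf4-null treated minus Atf4-null untreated) minus (eIF2a A/A treated minus eIF2a A/A untreated). It uses 8 of the 24 arrays of the series, 2 in each of 4 groups: Atf4-null with tunicamycin (Tun), Atf4-null untreated, eIF2a A/A with tunicamycin and eIF2a A/A untreated. Tunicamycin was given at 2 µg/mL, for 12 h by the sample labels, while the shared protocol text names 12 or 24 h. Wild-type MEFs (8 arrays), Perk-null MEFs (4 arrays, labelled PERKKO) and MEFs with the Fv2E-PERK transgene (4 arrays, given AP for 12 h or left untreated) served as values beside the difference. The labels do not say whether replicate arrays came from separate cultures, whether a genotype is 1 clone, or whether the genotypes are littermates. The p-values therefore rest on a spread between arrays, pooled over all groups of the fit, which may be technical.

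ER stress activates the kinase PERK, which phosphorylates the translation factor eIF2 on a serine of its alpha subunit, eIF2α. Phosphorylation lowers protein synthesis as a whole and raises translation of a few mRNAs, among them that of ATF4, a transcription factor of amino acid supply and redox genes; together these steps form the integrated stress response (ISR). In eIF2a A/A cells that serine is an alanine, so both the translational arrest and ATF4 production by this route are lost, whereas Atf4-null cells can still phosphorylate eIF2α. The comparison asks which genes need eIF2α phosphorylation but not ATF4 for their response. Fv2E-PERK is a PERK kinase domain that a dimerising drug switches on without ER stress.

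RNA was hybridised to 1-colour Agilent mouse arrays. A level here is log2 of the processed signal minus the 75th percentile of its array on that scale, so 0 is a probe as bright as that percentile, and levels of different probes were not ranked against each other. The Atf4-null arrays and 4 of the wild-type arrays belong to scan run 1, where slide 1 held every treated and slide 2 every untreated array: in Atf4-null cells slide and treatment cannot be told apart. A scan run here is a calendar year of scanning and not 1 session. The 4 Atf4-null arrays were each scanned at a different time within run 1. The 4 eIF2a A/A arrays shared 1 slide and 1 scan of run 3, read with another array design file than run 1. Replicates varied more in Atf4-null cells (median SD over genes 0.209 treated and 0.314 untreated) than in eIF2a A/A cells (0.0671 treated and 0.0895 untreated). The fit shares 1 spread per gene over all groups, so standard errors and p-values do not follow this inequality. Treated Atf4-null replicate 1 was the dimmest array of the series, with a 75th percentile of 111.4 against a range up to 417.7. Of 16 fibroblast markers, 14 were above background on every Atf4-null array and 14 on every eIF2a A/A array, and their summed linear level was 778 to 791 in treated and 714 to 1250 in untreated Atf4-null cells, against 1320 to 1370 in treated and 1410 to 1420 in untreated eIF2a A/A cells. In bulk RNA, fewer cells of a type and less RNA per cell cannot be told apart.

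The Atf4 probe checked the genotype labels. It read -4.27 (below background) and 0.01 on the treated Atf4-null arrays and 2.79 and -0.05 on the untreated ones, against 7.86 and 7.73 on treated and 7.76 and 7.96 on untreated eIF2a A/A arrays. All 4 Atf4-null arrays were thus far below all 4 eIF2a A/A arrays, and untreated Atf4-null replicate 1 was the highest of the 4. Eif2s1, which encodes eIF2α, differs in eIF2a A/A cells by a codon and not by loss of mRNA, so its probe checks nothing. Its level was 4.30 and 4.32 in treated and 4.23 and 4.69 in untreated Atf4-null cells, against 4.95 and 4.72 in treated and 5.09 and 5.29 in untreated eIF2a A/A cells.

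Across 14459 genes tested, the responses of Atf4-null and eIF2a A/A cells differed for 1831 genes (12.7%): 707 (4.89%) had the higher response in Atf4-null cells and 1124 (7.77%) the lower one (limma, two-sided, Benjamini-Hochberg adjusted p under 0.05, which is what "called" means below). The Atf4-null response itself was called for 4195 genes (29%), 1729 up (12%) and 2466 down (17.1%), and the eIF2a A/A response for 708 (4.9%), 445 up (3.08%) and 263 down (1.82%). A refit that weighted the arrays by scan run reversed this order, to 1041 Atf4-null and 5661 eIF2a A/A calls. In the unweighted fit used here, most differences came from genes that moved in Atf4-null cells alone. For 1182 genes the Atf4-null response was called while the eIF2a A/A response was not and stayed under 0.5 log2 in size, with 305 rises and 877 falls. In the weighted refit this class held 90 rises and 335 falls. The mirror class, eIF2a A/A alone, held 75 rises and 38 falls. Responses ran in opposite directions for 44 genes and in the same direction with unequal size for 23, of which 17 rose more in Atf4-null cells. The remaining 469 met none of these definitions. These counts depend on the arrays used: with only the 8 arrays in the fit the calls were 133 higher and 152 lower, and without untreated Atf4-null replicate 1 they were 1238 higher and 2080 lower.

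**Figure D1:**
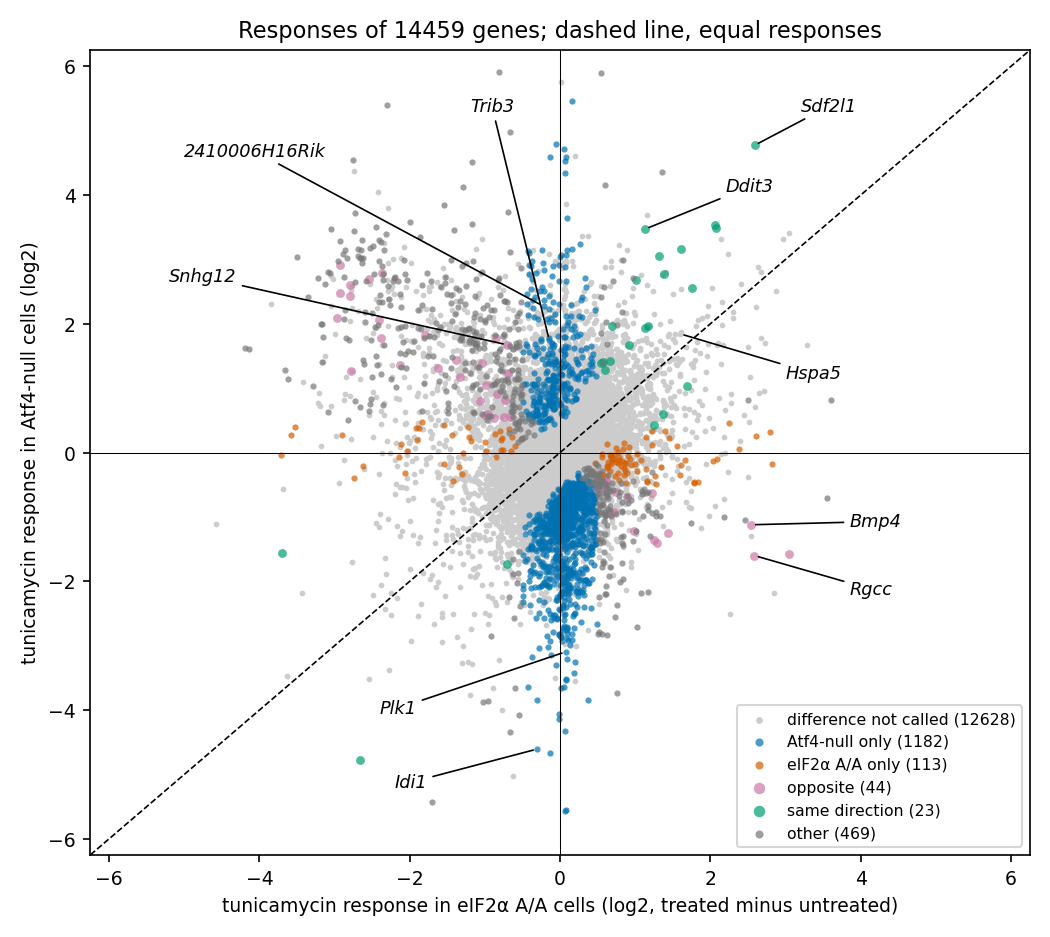
Tunicamycin response of every gene tested in Atf4-null cells (vertical axis, log2) against that in eIF2a A/A cells (horizontal axis, log2), with the called classes in colour and the dashed line at equal responses. The 1182 genes moving in Atf4-null cells alone form a vertical band around zero response of eIF2a A/A cells, with 877 of them below zero. The band follows from the class definition, which admits only eIF2a A/A responses under 0.5 log2 in size.

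ER chaperones and folding enzymes, the classical targets of the ATF6 and IRE1 branches that need no eIF2α phosphorylation, rose in both genotypes and more in Atf4-null cells for some members. Of 28 tested, 25 rose in Atf4-null cells (all genes 12%) with a list median of 1.62, and 19 rose in eIF2a A/A cells (all genes 3.08%) with a median of 1.07. The difference was called higher for 7 (all genes 4.89%) and lower for 1, with a median of 0.39 against -0.07 over all genes. Sdf2l1, a BiP cofactor, read 6.23 and 6.07 in treated and 1.17 and 1.59 in untreated Atf4-null cells, against 4.81 and 4.84 in treated and 2.18 and 2.29 in untreated eIF2a A/A cells. Its responses of 4.77 and 2.59 differed by 2.19 ± 0.28 (SE; adjusted p = 0.000548). Hsp90b1, which encodes the ER chaperone GRP94, read 8.75 and 7.87 in treated and 5.26 and 5.23 in untreated Atf4-null cells, against 8.53 and 8.77 in treated and 7.31 and 7.37 in untreated eIF2a A/A cells. The treated levels overlapped between the genotypes, while untreated Atf4-null cells were below untreated eIF2a A/A cells, and the responses differed by 1.75 ± 0.30 (adjusted p = 0.00214). Hyou1, a large nucleotide exchange factor of BiP, differed by 1.56 ± 0.24, Creld2 by 1.42 ± 0.19, the disulfide isomerase Pdia4 by 1.39 ± 0.29 and the lectin chaperone Calr by 1.28 ± 0.18 (adjusted p 0.00125, 0.000794, 0.0070 and 0.000888; these 4 were picked after their values were seen).

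Not every member was called. Hspa5, which encodes BiP, read 8.56 and 8.59 in treated and 6.54 and 6.91 in untreated Atf4-null cells, against 9.14 and 9.14 in treated and 7.49 and 7.60 in untreated eIF2a A/A cells. Its responses of 1.84 and 1.60 differed by 0.25 ± 0.19 (adjusted p = 0.425). Dnajb9, an IRE1 target, responded by 3.32 in Atf4-null cells and 2.97 in eIF2a A/A cells (difference 0.35 ± 0.20, adjusted p = 0.282). Ero1a, an oxidase that recharges the disulfide isomerases, was the 1 member called lower (difference -1.90 ± 0.54, adjusted p = 0.0317), with a response of -1.47 in Atf4-null cells and 0.43 in eIF2a A/A cells; its call held in 7 of the 18 alternative settings that gave it a value. Herpud1, a membrane protein of ER-associated degradation (ERAD), rose by 3.54 and 2.06 (difference 1.48 ± 0.23, adjusted p = 0.00127), and Xbp1, the transcription factor made active by IRE1 splicing, by 1.97 and 1.17 (difference 0.80 ± 0.23, adjusted p = 0.0328). The call of Xbp1 held in 8 of 19 alternatives.

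Wild-type arrays on the slides of the Atf4-null arrays gave the chaperone list a median response of 1.66, and against them the Atf4-null response was called higher for 2 members and lower for 5 (all genes 13.5% and 20.8%; a comparison added after the values were seen). Sdf2l1 responded by 4.28 in wild-type run 1 and 4.87 in run 2, 0.93 in Perk-null cells and -0.04 to AP. Hsp90b1 responded by 2.06 and 2.32 in the wild-type runs, 1.32 in Perk-null cells and -0.01 to AP. For both genes PERK activation without ER stress left the level near that of untreated cells.

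The ER stress response element (ERSE; CCAAT, 9 bases of any kind, then CCACG, searched on both strands) occurred in the 250 bases before the start of 17 of 11470 tested genes with a promoter in the RefSeq table (0.148%). It occurred in 8 of 25 chaperone promoters (32%) and in 4 of the 15 promoters of genes that rose in both genotypes and more in Atf4-null cells (26.7%): Alg12, Calr, Creld2 and Hsp90b1. Promoters of 3 of these and of Hspa5, which holds the element without a called difference, are shown 5′ to 3′ from RefSeq, build GRCm38.p6, so that a called and an uncalled holder can be read together. They lie at chr10:86705445-86705694, minus strand (Hsp90b1), chr8:84846932-84847181, minus strand (Calr), chr15:88819396-88819645, plus strand (Creld2) and chr2:34771840-34772089, plus strand (Hspa5). Capitals mark both half-sites of the element (CCAAT and CCACG, or CGTGG and ATTGG on the other strand) and any other searched motif: a TCACNCCAC sterol element on the other strand in Hsp90b1, an NF-kB site in Calr and Creld2, and a TGANTCA element in Hspa5.
Hsp90b1: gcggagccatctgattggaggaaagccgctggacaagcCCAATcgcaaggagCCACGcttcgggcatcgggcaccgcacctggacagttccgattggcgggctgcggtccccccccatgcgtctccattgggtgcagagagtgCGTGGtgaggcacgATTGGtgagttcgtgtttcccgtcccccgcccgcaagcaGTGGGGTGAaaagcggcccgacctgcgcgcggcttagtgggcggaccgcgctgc
Calr: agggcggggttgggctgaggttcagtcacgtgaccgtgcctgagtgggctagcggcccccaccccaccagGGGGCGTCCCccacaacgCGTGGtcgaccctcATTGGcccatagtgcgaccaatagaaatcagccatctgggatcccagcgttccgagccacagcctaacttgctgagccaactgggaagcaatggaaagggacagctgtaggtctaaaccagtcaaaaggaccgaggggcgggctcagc
Creld2: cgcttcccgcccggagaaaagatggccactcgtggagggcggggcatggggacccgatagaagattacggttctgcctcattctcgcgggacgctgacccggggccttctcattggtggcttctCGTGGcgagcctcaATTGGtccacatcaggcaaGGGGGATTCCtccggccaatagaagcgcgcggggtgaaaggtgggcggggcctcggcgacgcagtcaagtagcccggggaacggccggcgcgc
Hspa5: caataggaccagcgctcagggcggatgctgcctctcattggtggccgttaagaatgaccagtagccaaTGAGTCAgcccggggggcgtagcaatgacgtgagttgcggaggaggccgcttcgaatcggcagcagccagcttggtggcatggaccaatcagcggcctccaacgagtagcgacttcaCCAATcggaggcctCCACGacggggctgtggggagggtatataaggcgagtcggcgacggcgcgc
The element stands 212 to 194 and again 107 to 89 bases before the start in Hsp90b1, 162 to 144 in Calr, 126 to 108 in Creld2 and 65 to 47 in Hspa5. A match describes the letters and is no shown binding site. Genes with several annotated starts counted as holders if any of their windows matched, over 14528 windows in all.

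ISR genes showed no common direction. Of 28 ISR signalling genes and stress transcription factors, the difference was called higher for 3 (Ddit3, Trib3 and Vldlr; all genes 4.89%) and lower for 2 (Stc2 and Ddit4; all genes 7.77%), with a list median of -0.22. Ddit3, which encodes the transcription factor CHOP, read 5.56 and 5.32 in treated and 2.35 and 1.60 in untreated Atf4-null cells, against 1.41 and 1.44 in treated and 0.22 and 0.36 in untreated eIF2a A/A cells. It rose in both, by 3.47 and 1.13, and the responses differed by 2.34 ± 0.28 (adjusted p = 0.000412), a call kept in all 19 alternatives. The same gene responded by 1.27 in Perk-null cells, 2.32 to AP, and 4.74 and 4.61 in wild-type runs 1 and 2; against the wild type of the same slides the Atf4-null response was lower by 1.26 log2 units in size (difference -1.26, adjusted p = 0.00346). Trib3, a pseudokinase induced by ATF4 and CHOP, read 2.06 and 1.60 in treated and 0.46 and -0.28 in untreated Atf4-null cells, against 1.84 and 1.73 in treated and 1.70 and 2.16 in untreated eIF2a A/A cells. Treated levels overlapped between the genotypes, and the Atf4-null cells started lower. Its responses of 1.74 and -0.14 differed by 1.89 ± 0.41 (adjusted p = 0.0080), beside 2.24 in Perk-null cells, 4.0 to AP and 4.06 and 3.06 in the wild-type runs.

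Ppp1r15a, the stress-induced phosphatase subunit that reverses eIF2α phosphorylation, responded by 0.53 in Atf4-null and 0.41 in eIF2a A/A cells (difference 0.12 ± 0.26, adjusted p = 0.814), against 2.96 and 3.76 in wild-type runs 1 and 2. Atf3, a stress-induced transcription factor, responded by -0.33 and -0.87 (difference 0.55 ± 0.57, adjusted p = 0.577), against 2.49 and 4.40 in the wild-type runs. Neither response of Atf3 was called, and for Ppp1r15a only that of Atf4-null cells was. Chac1, a glutathione-degrading enzyme, responded by -0.58 and 0.88 (difference -1.46 ± 0.57, adjusted p = 0.105). The probe of Slc7a11, a cystine transporter gene, was not well above background on any of the 8 arrays, and no response is given for it. Stc2, a secreted glycoprotein, fell in Atf4-null cells by 1.55 and gave 0.58 in eIF2a A/A cells (difference -2.12 ± 0.41, adjusted p = 0.00454), while the wild-type runs gave 3.57 and 3.08.

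Amino acid and one-carbon synthesis genes, the best known ATF4 targets, were called higher in neither genotype. Of 18, 7 fell in Atf4-null cells (all genes 17.1%; list median -0.75) and 0 were called in eIF2a A/A cells by limma (median 0.01; 2 fell at an unadjusted p under 0.05). The difference was called lower for 4 (all genes 7.77%). In wild-type run 1, 17 of the 18 rose (all genes 20.4%), and against those arrays on the same slides 17 Atf4-null responses were lower (all genes 20.8%). Psat1, of serine synthesis, read 2.05 and 2.61 in treated and 4.12 and 5.25 in untreated Atf4-null cells, against 6.59 and 6.40 in treated and 6.19 and 6.40 in untreated eIF2a A/A cells. The Atf4-null levels were below the eIF2a A/A levels on every array and lowest with tunicamycin (difference of responses -2.56 ± 0.39, adjusted p = 0.00125). Cth, of cysteine synthesis, responded by -1.48 and 0.41 (difference -1.88 ± 0.46, adjusted p = 0.0149). Asns, asparagine synthetase, read 1.29 and 1.99 in treated and 2.78 and 3.25 in untreated Atf4-null cells, against 5.73 and 5.61 in treated and 5.61 and 5.78 in untreated eIF2a A/A cells. Its responses of -1.38 and -0.03 differed by -1.35 ± 0.35 (adjusted p = 0.0206), beside 2.29 in Perk-null cells, 1.55 to AP and 2.39 and 1.87 in the wild-type runs. Of 15 amino acid transporters 1 was called lower, Slc36a1 at -0.90, and of 20 cytosolic aminoacyl-tRNA synthetases 1, Qars at -1.13, beside 7.77% of all genes. Slc36a1 gave 0.17 with the mean of its probes.

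Rises in Atf4-null cells alone numbered 305, with a median difference of 1.23. Of these, 131 (43%) were called up in the pooled wild type (all genes 21.2%), 104 (34.1%) in wild-type run 2, which shares no slide with the Atf4-null arrays (all genes 12.2%), 45 (14.8%) on AP (all genes 2.79%) and 6 (1.97%) in Perk-null cells (all genes 1.87%). In wild-type run 1, 39 (12.8%) were called down (all genes 16.7%), and 157 (51.5%) rose more than in the wild type on the same slides (all genes 13.5%), a comparison that shares the Atf4-null arrays with the class. The class also held dim genes: 153 of 305 (50.2%) had a mean level under 0 on the 8 arrays, against 41% of all genes and 13.7% of the falls. On no eIF2a A/A array were 38 of the 305 (12.5%) above background, against 6.73% of all genes and 1.48% of the falls. A gene could be tested through any 1 group. For these 38 a missing eIF2a A/A response cannot be told apart from a signal below background. Without treated Atf4-null replicate 1, the dimmest array, 200 rises were called, and the part of signal strength in the class was not tested.

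Several of the largest rises were such dim genes. Igdcc4, an immunoglobulin-family membrane protein, read 0.63 and 0.29 in treated and -2.33 and -4.03 in untreated Atf4-null cells, against -2.85 and -2.89 in treated and -3.09 and -2.84 in untreated eIF2a A/A cells (difference 3.54 ± 0.90, adjusted p = 0.0194). It responded by -1.57 and 0.76 in the wild-type runs and 0.12 to AP, and its call held in 11 of 19 alternatives. Prph, the intermediate filament peripherin, read -0.51 and -0.85 in treated and -3.30 and -4.12 in untreated Atf4-null cells, against -3.01 and -3.32 in treated and -3.22 and -3.11 in untreated eIF2a A/A cells. Its groups did not overlap in Atf4-null cells, as for 54.9% of all genes, and the difference of 3.03 ± 0.35 (adjusted p = 0.000367) was called in all 19 alternatives. Slc26a10 (3.17), Tas1r3 (3.05), the proton channel gene Hvcn1 (2.99), the lipoxygenase gene Aloxe3 (2.98), Pxk (2.60), Aatk (2.46), the phospholipid transfer protein gene Pltp (2.38), Cspg5 (2.33) and Fam83f (2.23) completed the largest, and wild-type responses of these 9 lay between -1.99 and 2.14. The call of Fam83f held in 9 of 19 alternatives. Zswim9 rose by 1.76 in Atf4-null cells and 0.57 to AP (difference 2.01 ± 0.22, adjusted p = 0.000234), with -0.05 and 0.37 in the wild-type runs.

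Of the 305 rises, 30 (9.84%) were also called up in both wild-type runs and on AP, a combination met by 1.41% of all genes; this subset was defined after the values were seen. 2410006H16Rik, a RIKEN cDNA gene, was one of them. It read 6.86 and 6.75 in treated and 4.78 and 4.28 in untreated Atf4-null cells, against 4.51 and 4.33 in treated and 4.62 and 4.66 in untreated eIF2a A/A cells. Only the treated Atf4-null arrays stood apart, by about the amount seen in other cells: 2.27 in Atf4-null cells, -0.22 in eIF2a A/A cells, 0.37 in Perk-null cells, 2.44 to AP, and 2.51 and 2.44 in wild-type runs 1 and 2. The difference was 2.49 ± 0.24 (adjusted p = 0.000108), called in all 19 alternatives, and the Atf4-null response against the wild type of the same slides gave -0.24 (adjusted p = 0.488).

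Gm10487 and Pla2g2e were not above background on all 8 arrays, and no difference is given for them. The other members ranged from 0.53 (Zfp330) to 1.98 (Mtm1) in their difference. Mtm1, a phosphoinositide phosphatase, read 0.24 and -0.71 in treated and -2.65 and -2.07 in untreated Atf4-null cells, against -2.49 and -2.32 in treated and -2.64 and -2.47 in untreated eIF2a A/A cells (difference 1.98 ± 0.44, adjusted p = 0.0092). Tsc22d3, a glucocorticoid-induced leucine zipper protein, responded by 1.19 and -0.09 (difference 1.28 ± 0.26, adjusted p = 0.00529), and 1.05 to AP. The mitochondrial thymidine kinase gene Tk2 differed by 0.98, the mitochondrial tRNA methyltransferase gene Trmt61b by 0.99, the topoisomerase gene Top1mt by 1.1 and the deacetylase gene Sirt3 by 0.62. Amz1, a metallopeptidase, differed by 1.57, and its Atf4-null rise of 1.37 was short of that of the wild type on the same slides (-2.03, adjusted p = 9.06e-07), as were those of Trib3 (-2.31) and Snhg6 (-0.60), while Tk2 (0.49) and Gnptg (0.58) rose more than there. The nuclear envelope protein gene Syne1 differed by 0.91, the calcineurin subunit gene Ppp3cc by 0.98, the anaphase-promoting complex subunit gene Anapc16 by 0.85, and the lysosomal targeting enzyme subunit gene Gnptg by 0.82. The remaining members were Frg2f1 (1.68), Zc3h8 (1.34), Mettl22 (1.24), Zfp786 (1.21), Ccdc134 (1.08), Catsper2 (1.05), Krcc1 (0.92), Lonrf1 (0.88), Pdcd2 (0.83) and Zbtb25 (0.76), with Trib3 above and Tmem268, Vldlr, Snhg6 and Snhg7 below. Of the 30, Trib3 and Gnptg were called in Perk-null cells, at 2.24 and 0.62, where 1.87% of all genes were called up.

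**Figure D2:**
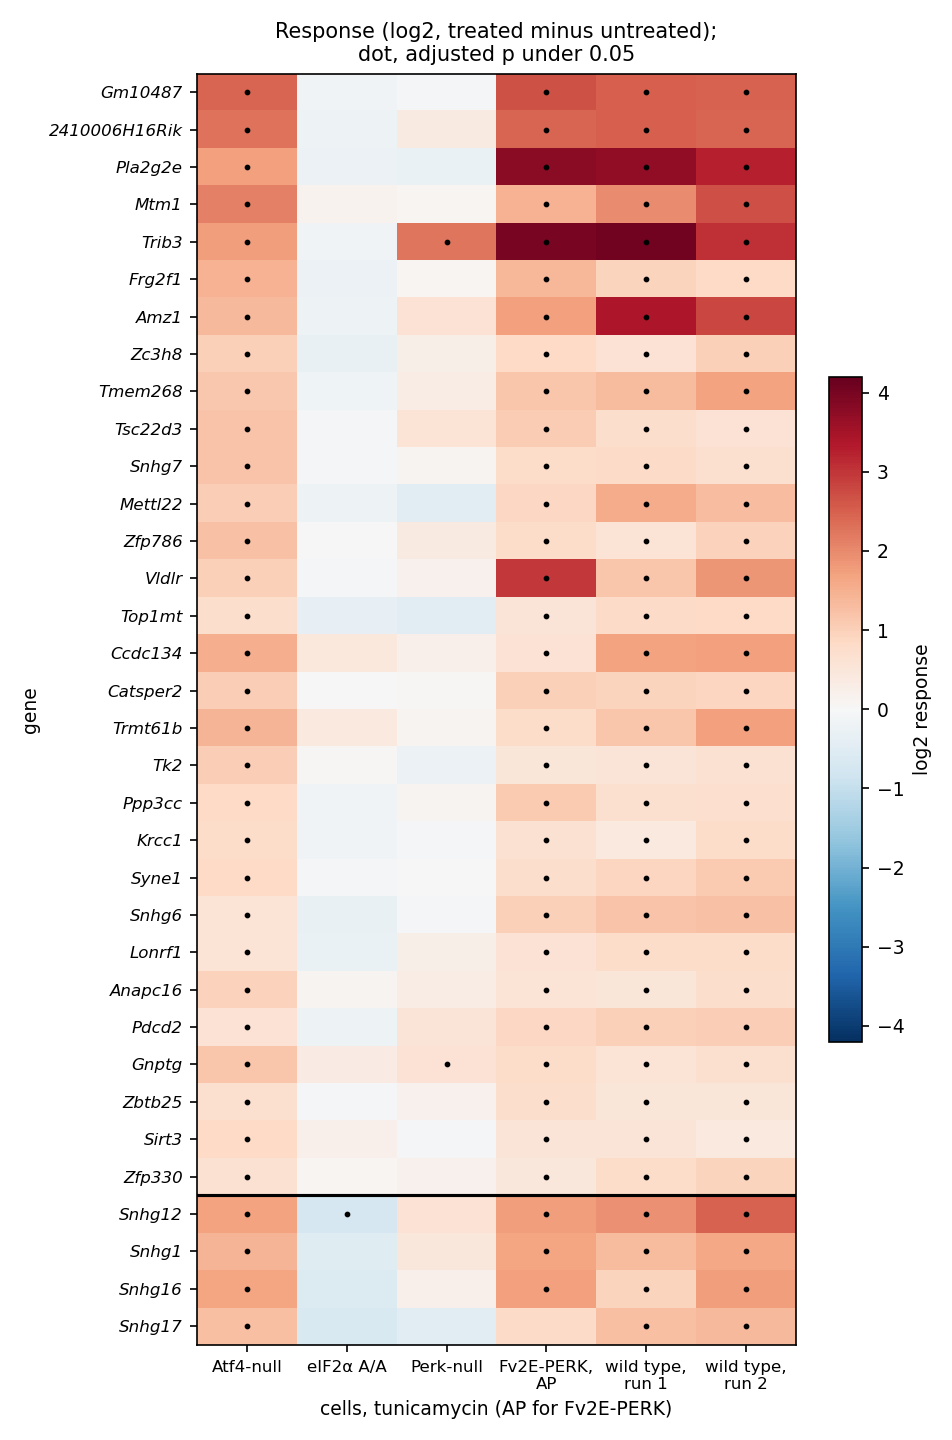
Responses (log2, treated minus untreated, colour) of the 30 genes that rose in Atf4-null cells alone, in both wild-type runs and on AP, and below the line 4 snoRNA host genes, in 6 columns of cells; dots mark adjusted p under 0.05, and Gm10487 and Pla2g2e were not above background on all 8 arrays. 2410006H16Rik reads 2.27 in Atf4-null, -0.22 in eIF2a A/A, 0.37 in Perk-null and 2.44 in Fv2E-PERK cells given AP. The eIF2a A/A responses of the 30 lie between -0.36 (Top1mt) and 0.44 (Ccdc134), since the class admits only sizes under 0.5. Trib3 at 2.24 is the largest in Perk-null cells.

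Small nucleolar RNA (snoRNA) host genes had the higher response in Atf4-null cells for most members. They are noncoding genes whose introns hold snoRNAs, and their spliced transcripts are known substrates of nonsense-mediated decay. The family was gathered by symbol after its values were seen. Of 8 tested, 6 had a higher response in Atf4-null cells (all genes 4.89%) and limma called 0 lower (0 also at an unadjusted p under 0.05), with a median difference of 1.59 against -0.07 over all genes. Snhg12 read 4.91 and 5.15 in treated and 3.27 and 3.44 in untreated Atf4-null cells, against 3.73 and 3.49 in treated and 4.26 and 4.36 in untreated eIF2a A/A cells. It moved in opposite directions, by 1.67 and -0.70, and the difference of 2.38 ± 0.24 (adjusted p = 0.000112) was called in all 19 alternatives. Snhg16 read 5.45 and 5.65 in treated and 3.99 and 3.80 in untreated Atf4-null cells, against 3.48 and 3.40 in treated and 3.98 and 4.06 in untreated eIF2a A/A cells (difference 2.23 ± 0.33, adjusted p = 0.0011). Snhg1 differed by 1.94, Snhg17 by 1.92, Snhg7 by 1.26 and Snhg6 by 0.91. Snhg10 (-0.13) and Snhg3 (-0.44) were not called. The family median was 1.23 in Atf4-null cells, -0.41 in eIF2a A/A cells, 0.90 on AP and 1.07 and 1.29 in wild-type runs 1 and 2, and 6 members rose in each wild-type run (all genes 20.4% and 12.2%) and 5 on AP (2.79%).

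**Figure D3:**
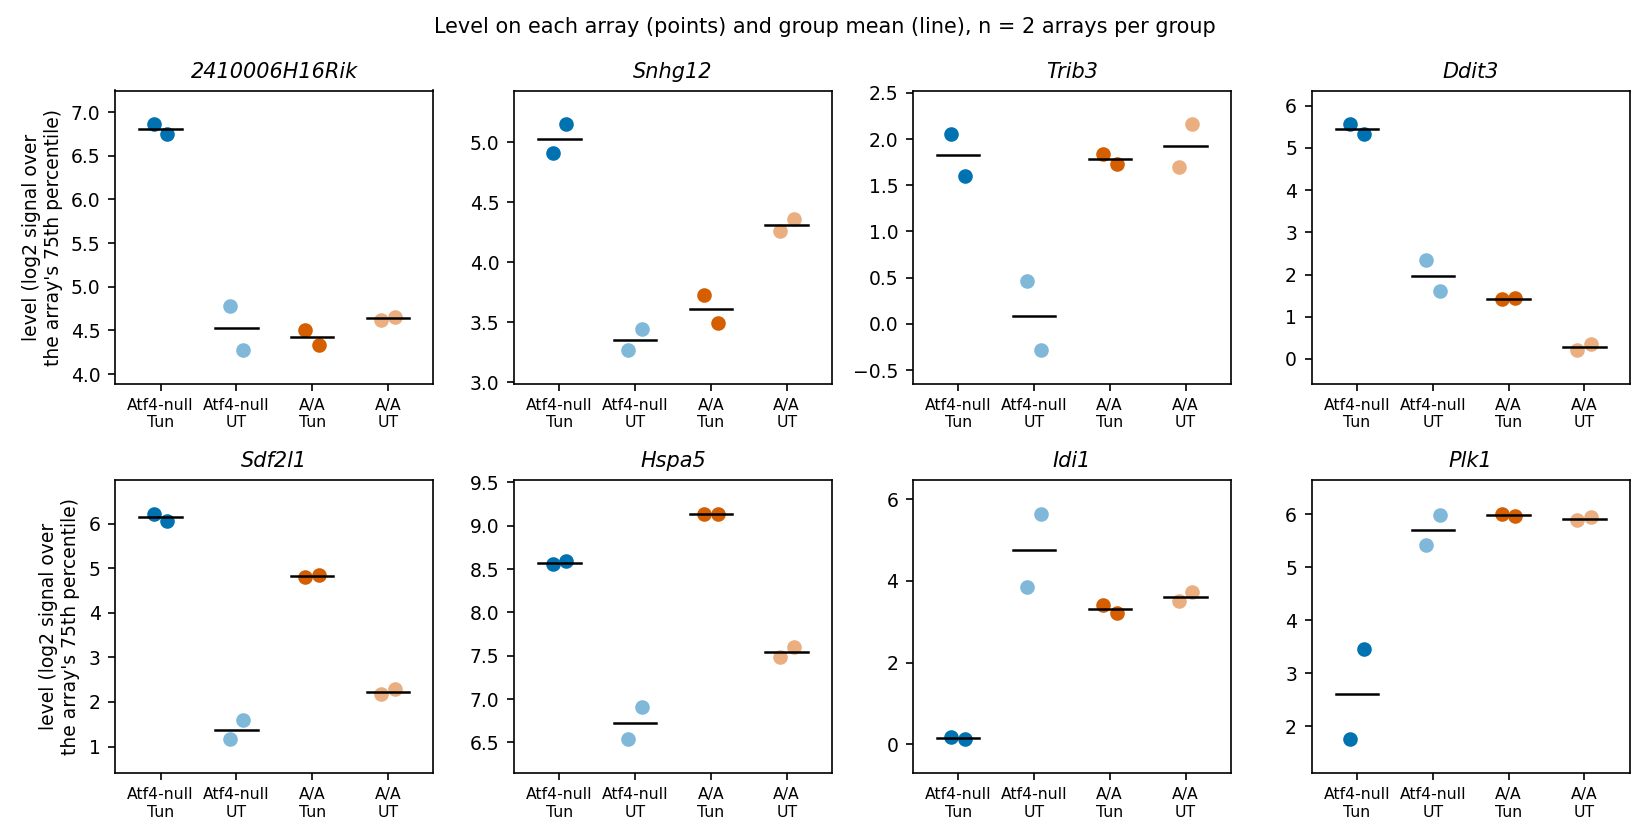
Level of 8 genes (log2 of signal over the array's 75th percentile) on each of the 8 arrays (points) with the group mean (line), 2 arrays per group, in the order Atf4-null treated, Atf4-null untreated, eIF2a A/A (A/A) treated and untreated. 2410006H16Rik and Snhg12 are high on both treated Atf4-null arrays alone, Sdf2l1 and Hspa5 rise in both genotypes, and Idi1 and Plk1 drop on the treated Atf4-null arrays only.

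The C/EBP-ATF composite element TGATGNAA, the letters of the known ATF4 binding site, was searched on both strands of the same 250 bases. It occurred in 2.69% of all tested promoters and in 5 of 246 (2.03%) of the Atf4-null only rises. It occurred in 3 of 25 promoters of the 30-gene subset (12%): Gm10487, Tmem268 and Vldlr. Of the ISR list 6 of 23 (26.1%) held it, and of the amino acid synthesis list 3 of 15 (20%), Asns among them. Tmem268, a transmembrane protein, read 0.03 and -0.17 in treated and -1.05 and -1.33 in untreated Atf4-null cells, against -0.67 and -0.65 in treated and -0.49 and -0.49 in untreated eIF2a A/A cells (difference 1.29 ± 0.29, adjusted p = 0.0102). Vldlr, the very low density lipoprotein receptor, read 0.44 and 1.04 in treated and -0.38 and -0.17 in untreated Atf4-null cells, against -0.40 and -0.32 in treated and -0.30 and -0.22 in untreated eIF2a A/A cells (difference 1.11 ± 0.34, adjusted p = 0.0448). Both rose without ATF4, while Asns, with the same letters, fell. Their promoters are shown 5′ to 3′ from RefSeq, build GRCm38.p6, with the element in capitals: Tmem268 at chr4:63558513-63558762, plus strand, Vldlr at chr19:27216770-27217019, plus strand, and Asns at chr6:7693210-7693459, minus strand. In Vldlr the element is on the other strand. Tmem268 and Vldlr each have 1 further start window, which holds none of the searched motifs and is not shown.
Tmem268: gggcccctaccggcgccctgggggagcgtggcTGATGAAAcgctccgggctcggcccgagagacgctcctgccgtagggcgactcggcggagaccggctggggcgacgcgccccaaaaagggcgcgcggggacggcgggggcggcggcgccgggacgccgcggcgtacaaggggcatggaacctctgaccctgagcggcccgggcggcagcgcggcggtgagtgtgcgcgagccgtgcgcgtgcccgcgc
Vldlr: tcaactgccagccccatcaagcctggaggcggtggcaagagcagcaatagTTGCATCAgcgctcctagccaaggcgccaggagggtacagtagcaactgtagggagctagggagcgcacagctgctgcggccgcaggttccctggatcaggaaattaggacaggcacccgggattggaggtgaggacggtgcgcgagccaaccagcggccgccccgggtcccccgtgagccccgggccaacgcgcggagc
Asns: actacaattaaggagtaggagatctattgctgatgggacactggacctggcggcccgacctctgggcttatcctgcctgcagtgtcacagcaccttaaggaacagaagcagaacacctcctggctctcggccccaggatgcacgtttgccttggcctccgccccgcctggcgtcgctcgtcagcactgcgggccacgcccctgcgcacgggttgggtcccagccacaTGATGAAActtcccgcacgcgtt
The element stands 218 to 211 bases before the start in Tmem268, 200 to 193 in Vldlr and 23 to 16 in Asns. Shares of the interferon response element, NF-kB, CArG, TGACGTCA and TGACGTGG motifs were searched likewise, and none is read here as a feature of the rises.

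Falls in Atf4-null cells alone numbered 877, with a median difference of -1.16, and were led by cholesterol synthesis, the cell cycle and histones. Of 25 genes of cholesterol synthesis and uptake, 23 had the lower response in Atf4-null cells (all genes 7.77%) and limma called 0 higher (1 at an unadjusted p under 0.05), with a list median of -2.50. In Atf4-null cells 23 of 25 fell (all genes 17.1%; median -2.37), and in eIF2a A/A cells limma called 0 (median 0.00; 1 higher and 1 lower at an unadjusted p under 0.05). Idi1, an isomerase early in the pathway, read 0.17 and 0.13 in treated and 3.86 and 5.65 in untreated Atf4-null cells, against 3.40 and 3.22 in treated and 3.51 and 3.72 in untreated eIF2a A/A cells (difference -4.30 ± 0.84, adjusted p = 0.00466). Msmo1, a sterol oxidase, read 2.31 and 2.56 in treated and 5.38 and 6.80 in untreated Atf4-null cells, against 4.78 and 4.76 in treated and 4.64 and 4.87 in untreated eIF2a A/A cells (difference -3.67 ± 0.83, adjusted p = 0.0107). In both genes the treated Atf4-null arrays lay below, and the untreated ones above, all 4 eIF2a A/A arrays. Nsdhl differed by -3.60, with Insig1 (-3.73), Sqle (-2.83) and the regulator Srebf2 (-1.97) among members picked after their values were seen; Ebp (-0.73) was not called.

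Wild-type cells did not give the cholesterol genes 1 direction. The list median was 0.38 in wild-type run 1 (8 up and 2 down of 25, against 20.4% and 16.7% of all genes) and -1.21 in run 2 (1 up and 19 down, against 12.2% and 9.03%), -0.61 in Perk-null cells and -0.71 on AP. Idi1 responded by -0.24 in run 1 and -2.46 in run 2, and Msmo1 by 1.87 and -0.50. Against the wild type on the same slides 23 of 25 Atf4-null responses were lower (all genes 20.8%), with a median of -2.80. The 2 wild-type runs were scanned apart, and what else differed between them was not tested.

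Of 29 genes of the cell cycle and DNA replication, 23 had the lower response in Atf4-null cells (all genes 7.77%) and limma called 0 higher, also unadjusted, with a median of -1.54. In Atf4-null cells 25 fell (all genes 17.1%), and in eIF2a A/A cells limma called 0, and 0 at an unadjusted p under 0.05 (medians -1.63 and 0.07). Plk1, a mitotic kinase, read 1.76 and 3.45 in treated and 5.42 and 5.98 in untreated Atf4-null cells, against 6.01 and 5.97 in treated and 5.88 and 5.94 in untreated eIF2a A/A cells (difference -3.17 ± 0.51, adjusted p = 0.0015). Aurka, another mitotic kinase, differed by -2.80 ± 0.44 (adjusted p = 0.00135). Ccna2 (-2.43), the proliferation marker Mki67 (-2.17), Cdk1 (-2.04), the ribonucleotide reductase gene Rrm2 (-2.0) and the thymidine kinase gene Tk1 (-1.67) were lower too, whereas Aurkb (0.23), Mcm2 (-0.48), Mcm4 (-0.56), Mcm6 (-0.51), Tyms (-0.63) and E2f1 (-0.47) were not called. The list median was -0.41 and -0.36 in wild-type runs 1 and 2, -0.14 in Perk-null cells and 0.06 on AP. Against the wild type of the same slides 20 of 29 were lower (all genes 20.8%; median -1.06). An E2F motif (TTTGGCGC or TTTCCCGC) occurred in 4 of 24 promoters of the list (16.7%) and in 2.56% of all, a motif added after the values were seen. The TCACNCCAC sterol element, added likewise, occurred in 1 of 17 promoters of the cholesterol list (5.88%) and in 1.27% of all. Among the Atf4-null only falls the shares were 3.88% for E2F and 1.25% for the sterol element.

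**Figure D4:**
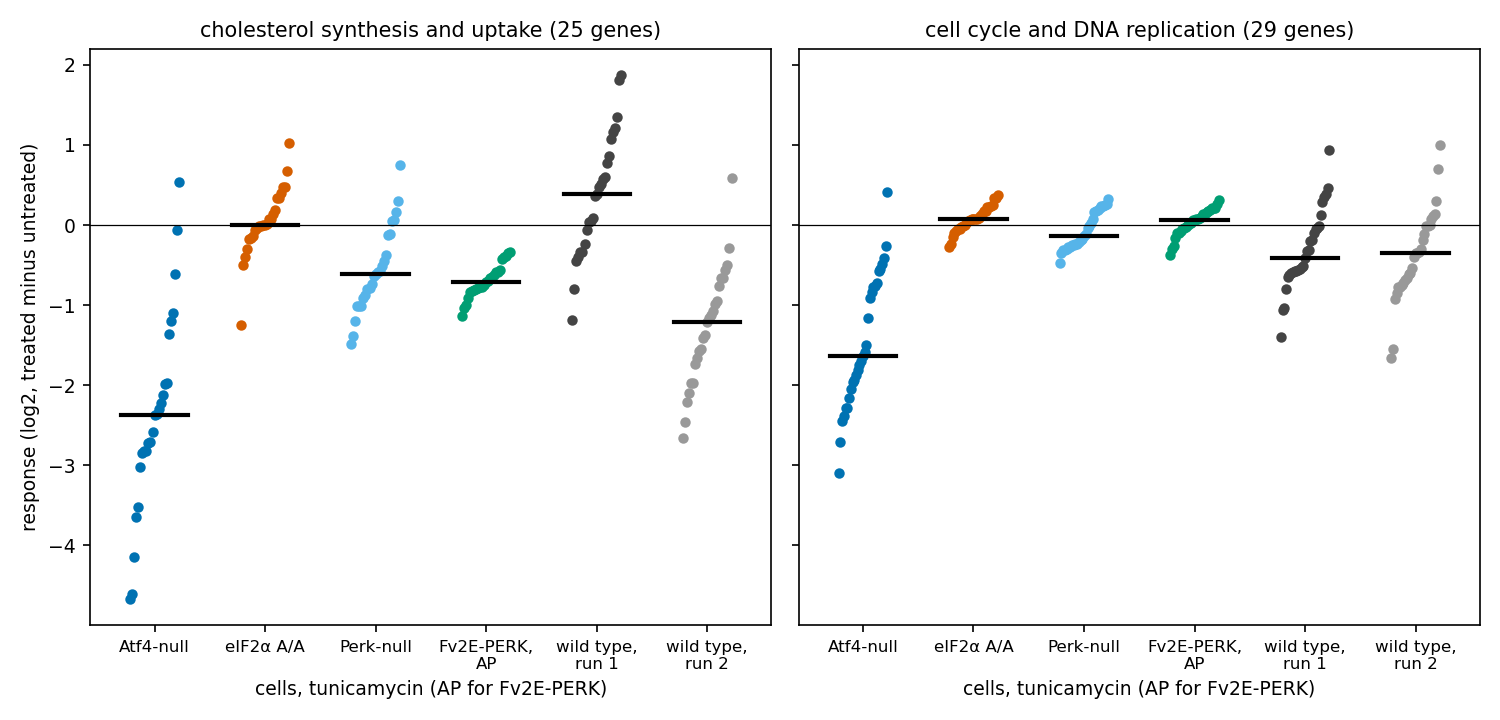
Responses (log2, treated minus untreated) of each gene (points) of the cholesterol list (25 genes, left) and the cell cycle list (29 genes, right) in 6 sets of cells, with the list median as a line. The Atf4-null points lie lowest, with medians of -2.37 and -1.63, the eIF2a A/A points cluster near zero, and wild-type run 2 has a median of -1.21 for the cholesterol list.

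Clustered histone genes, made in S phase, followed the cell cycle list. Of 44 tested, 28 had the lower response in Atf4-null cells (all genes 7.77%) and limma called 0 higher (1 at an unadjusted p under 0.05; median -2.04). In Atf4-null cells 35 fell (all genes 17.1%), and limma called 0 in eIF2a A/A cells (1 higher and 1 lower at an unadjusted p under 0.05). The family was gathered by symbol after its values were seen, and its members are near-identical, so probes may read several of them. H1f5 read 1.03 and 2.40 in treated and 5.32 and 5.40 in untreated Atf4-null cells, against 6.15 and 6.17 in treated and 6.01 and 6.22 in untreated eIF2a A/A cells (difference -3.69 ± 0.45, adjusted p = 0.000485). H2bc4 differed by -3.45 and H1f1 by -3.25. Ppbp, a chemokine, differed by -3.55 ± 0.84 (adjusted p = 0.0132), but fell by 3.66 in wild-type run 1 as well, and the same-slide comparison gave -0.20 (adjusted p = 0.847).

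Of the 877 falls, 599 (68.3%) fell more than in the wild type on the same slides (all genes 20.8%), 3 fell less and 275 were not called. That comparison shares the Atf4-null arrays with the class. Class medians were -0.15 and -0.25 in wild-type runs 1 and 2 (all genes 0.10 and 0.04) and -0.04 on AP (0.08). Called down in both wild-type runs and on AP as well were 15 of the falls (1.71%), beside 0.636% of all genes. S100a11, a calcium-binding protein, read 3.21 and 2.97 in treated and 5.63 and 6.18 in untreated Atf4-null cells, against 6.20 and 6.30 in treated and 6.03 and 6.14 in untreated eIF2a A/A cells (difference -2.98 ± 0.29, adjusted p = 0.000108). The surface protein genes Ly6c1 and Ly6a, which are close relatives, differed by -2.94 and -2.87, and the matrix Gla protein gene Mgp by -2.54. Ly6c1 responded by -2.92 in Atf4-null cells, 0.02 in eIF2a A/A cells, 0.29 in Perk-null cells, -1.55 to AP, and -1.78 and -2.13 in the wild-type runs. S100a11 gave -2.81, 0.16, 0.22, -0.84, and -0.55 and -0.99 in the same order. The semaphorin receptor gene Nrp1 (-1.68), Trappc1 (-1.55), the tubulin gene Tuba1a (-1.26), Aldoc (-1.1), Ak1 (-1.07), the crosslinking enzyme gene Loxl1 (-1.07), Acat2 (-1.01), Chd3 (-1.01), Wbp1 (-0.92), Maged1 (-0.80) and Midn (-0.67) completed the set.

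**Figure D5:**
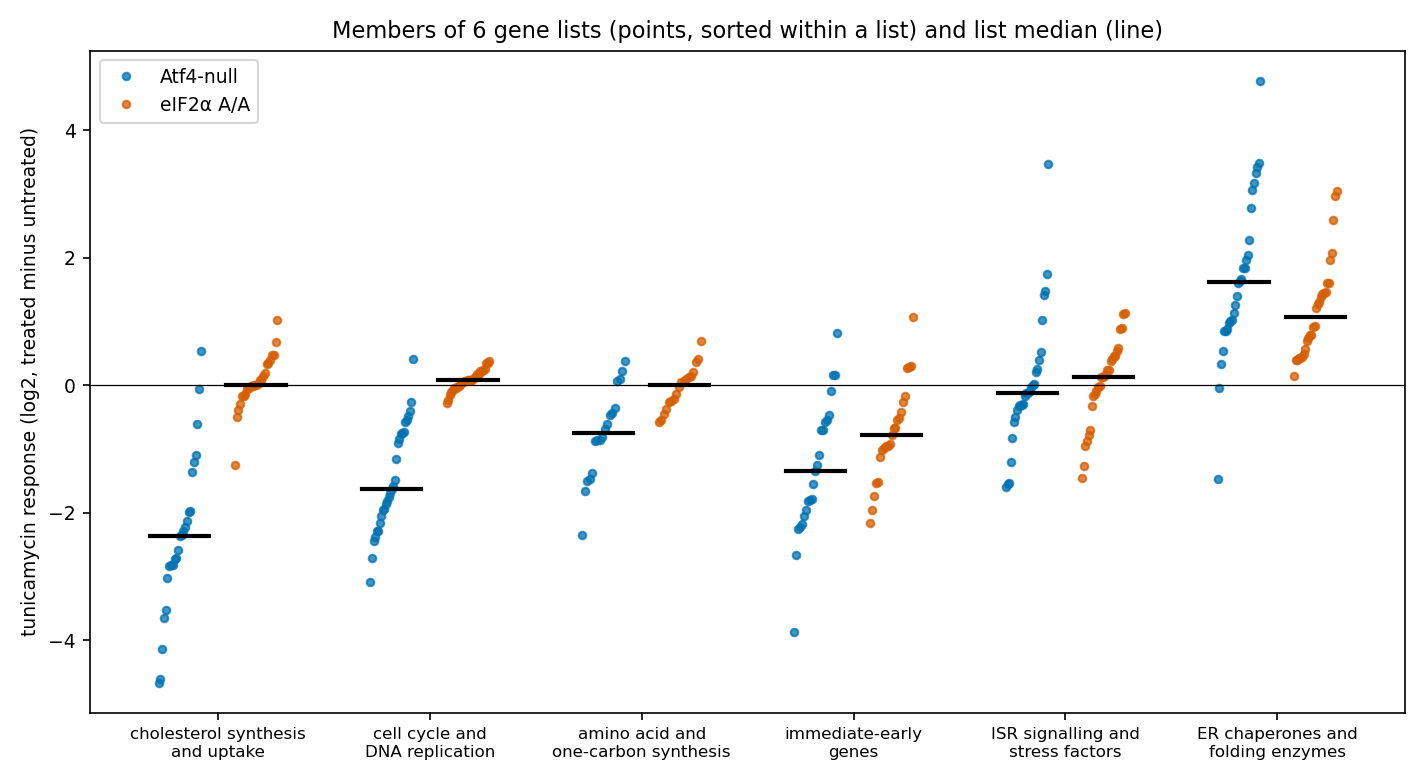
Tunicamycin response (log2, treated minus untreated) of each member (points, sorted) of 6 gene lists in Atf4-null cells (blue, left of each pair) and eIF2a A/A cells (orange, right), with list medians as lines. Medians are -2.37 and 0.00 for cholesterol genes, -1.63 and 0.07 for the cell cycle, and 1.62 and 1.07 for ER chaperones.

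Rises in eIF2a A/A cells alone (75 genes) were led by Gprc5c, an orphan receptor. It read -2.50 and -2.27 in treated and -1.45 and -2.96 in untreated Atf4-null cells, against 0.78 and 0.79 in treated and -2.02 and -2.03 in untreated eIF2a A/A cells (difference -2.99 ± 0.53, adjusted p = 0.00264). The treated eIF2a A/A arrays alone were high. Angpt1, a ligand of the vascular receptor TIE2 (-2.47), Mrgprf (-2.34), the BH3-only death gene Bmf (-2.32), Cnnm2 (-2.29), Igfbp6 (-2.19), the growth arrest gene Gas1 (-2.17) and Tmem119 (-1.81) followed. Their Atf4-null responses were at most 0.46 in size, where the class admits only sizes under 0.5. Angpt1 gave 1.79 in Perk-null cells, -2.51 to AP, and -3.97 and -3.62 in the wild-type runs, and Gas1 gave 1.07, -0.94, -3.56 and -2.28 in the same order. Both rose in eIF2a A/A cells, by 2.79 and 2.04, and the call of Angpt1 held in 10 of 19 alternatives. The call of Gas1 was lost with the mean of its probes, and that of Tmem119 held in 9 of 19 alternatives. Over the 75 genes the median was 0.42 in Perk-null cells (all genes 0.02), -0.02 on AP (0.08), and 0.03 and 0.24 in wild-type runs 1 and 2 (0.10 and 0.04).

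Falls in eIF2a A/A cells alone (38 genes) included Tmem131, which takes part in collagen secretion. It read 2.41 and 2.79 in treated and 2.38 and 2.98 in untreated Atf4-null cells, against 0.47 and 0.54 in treated and 2.57 and 2.72 in untreated eIF2a A/A cells (difference 2.06 ± 0.27, adjusted p = 0.000654). Angptl2, a secreted glycoprotein (2.42), the transcription factor gene Elf4 (2.31), the triglyceride synthesis gene Dgat2 (2.25), Egfl7 (1.97) and P3h4, of collagen processing (1.75), were the others named by size. Tmem131 gave -0.78 in Perk-null cells and 0.02 and -0.15 in the wild-type runs.

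Opposite responses were called for 28 genes that rose in Atf4-null cells and 16 that fell there. Tmem150a, a membrane protein, read 1.95 and 1.85 in treated and 0.10 and 0.13 in untreated Atf4-null cells, against -1.61 and -1.40 in treated and -0.66 and -0.65 in untreated eIF2a A/A cells (difference 2.63 ± 0.24, adjusted p = 8.71e-05). It gave 1.02 to AP and 0.82 and 1.08 in the wild-type runs. The purinergic receptor gene P2ry2 (2.50) and Rab6b (1.93) behaved likewise in the mutants. Rgcc, a cell cycle regulator, read 0.77 and 1.88 in treated and 3.48 and 2.38 in untreated Atf4-null cells, against 1.80 and 1.77 in treated and -0.75 and -0.86 in untreated eIF2a A/A cells (difference -4.19 ± 0.59, adjusted p = 0.000888). The growth factor gene Bmp4 (-3.67), the phosphatidate phosphatase gene Lpin1 (-2.69) and the retinol dehydrogenase gene Rdh11 (-2.61) also fell in Atf4-null and rose in eIF2a A/A cells. The called difference of Bmp4 was lost with the mean of its probes.

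A few genes moved the same way with unequal size. The matricellular gene Ccn2 fell by 4.78 in Atf4-null and 2.67 in eIF2a A/A cells (difference -2.11 ± 0.56, adjusted p = 0.0225), and Slco2a1 by 1.73 and 0.71 (difference -1.02). The matrix gene Fbln2 fell less in Atf4-null cells, by 1.57 against 3.70 in eIF2a A/A cells (difference 2.13 ± 0.45, adjusted p = 0.00694). The ER chaperone gene Hspa13 (-0.82) and Golph3l (-0.76) rose in both and less in Atf4-null cells. The call of Golph3l held in 7 of 19 alternatives.

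Some Atf4-null only genes had a probe above background on both arrays of 1 Atf4-null group and on neither of the other. The 4 with the largest difference of responses are given here. All 4 were above background on the treated Atf4-null arrays and not on the untreated ones. For them a bound that rests on a chosen floor replaces the fold. The floor was the lowest signal above background on each untreated array, or the probe's own where higher, and is no detection limit. Over it, treated Atf4-null cells were 19.8-fold higher for Kcng2, 17.2-fold for Mlana, 7.05-fold for Fam186a and 6-fold for Prl3c1. In the alternatives the difference of responses ran from 2.17 to 5.7 log2 for Kcng2 and 1.86 to 5.8 for Mlana. It ran from 1.4 to 5.09 for Fam186a and 1.22 to 5.26 for Prl3c1. Mlana gave 0.78 and -0.19 in wild-type runs 1 and 2, Kcng2 0.50 and 0.48, Fam186a -1.64 and 0.65, and Prl3c1 -2.36 and 0.51; the only one of these 8 that was called was the fall of Prl3c1.

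Of the 469 called genes in no class, 318 had the higher response in Atf4-null cells, and many shared an array pattern. For 182 of the 318 (57.2%), treated Atf4-null replicate 2 was the highest Atf4-null array and untreated eIF2a A/A replicate 1 the highest eIF2a A/A array, against 5.82% of all genes, 10.5% of the Atf4-null only rises (32 of 305) and 0 of the 877 Atf4-null only falls. The median level of the 318 over the 8 arrays was -3.41, against 0.89 for all genes. Itgam, a myeloid integrin, and Snap25, a synaptic protein, were of this kind. Itgam read 4.78 and 6.45 in treated and 4.13 and 3.28 in untreated Atf4-null cells, against 4.84 and 4.74 in treated and 6.39 and 5.71 in untreated eIF2a A/A cells (difference 3.17 ± 0.93, adjusted p = 0.0372). Snap25 read 4.27 and 6.22 in treated and 3.89 and 2.99 in untreated Atf4-null cells, against 4.47 and 4.35 in treated and 6.08 and 5.36 in untreated eIF2a A/A cells (difference 3.11 ± 0.97, adjusted p = 0.0477). Each was called in 8 of 19 alternatives.

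In the remaining lists the counts stand beside 4.89% higher and 7.77% lower over all genes. Of 23 immediate-early genes, 16 fell in Atf4-null cells (all genes 17.1%) and 5 in eIF2a A/A cells (all genes 1.82%), with medians of -1.34 and -0.79. The difference was called lower for 3: Dusp1 (-3.26 ± 0.71), Fos (-2.85 ± 0.57) and Btg2 (-2.08 ± 0.56). Glycolysis and hypoxia targets (7 lower of 25, with Slc2a1 at -1.51), cytosolic heat shock proteins (6 lower of 20, with Hspa4l at -1.73 and Hsph1 at -1.43) and NRF2 targets (6 lower of 24, with Srxn1 at -1.58 and Pgd at -1.42) had medians of -0.74, -0.69 and -0.52. Among NF-kB targets 2 were higher, Relb at 1.51 the larger of them, and 1 lower, the prostaglandin synthase gene Ptgs2 at -2.90. Extracellular matrix had 4 lower of 30, with Col8a1 at -1.74. ER translocation and transport had 4 lower of 34, with Sec62 at -1.09 and Kdelr2 at -0.92. Of its members 12 rose in Atf4-null cells (all genes 12%) and 17 in eIF2a A/A cells (all genes 3.08%). ERAD had 2 higher and 1 lower of 26 (Ubxn4 at 1.66), the IRE1, ATF6 and CREB3 list 1 of each of 13 (Mbtps1 at -0.87), p53 targets 3 lower of 22 (Trp53inp1 at -1.70), autophagy 1 higher and 3 lower of 24 (Atg10 at 1.46 and Wipi1 at -1.22), and apoptosis regulators 1 higher and 2 lower of 24. Mitochondrial proteases and chaperones had 2 lower of 20 (Phb at -1.82 and Spg7 at -0.64) and cytosolic ribosomal proteins 1 of 24 (Rps2 at -0.69). Of these calls, that of Ubxn4 held in 6 of 18 alternatives, and those of Trp53inp1, Rps2 and Spg7 in 6, 8 and 9 of 19.

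Limma called 0 of 23 interferon-stimulated genes (median 0.66; 1 higher at an unadjusted p under 0.05) and 0 of 12 IRE1 decay substrates (median 0.01; 3 higher and 2 lower unadjusted). The summed interferon level on the untreated Atf4-null arrays was 55.8 and 317, so these replicates differed from each other. Among markers of other cell types the difference was called higher for Grhl2 (epithelial, 1 of 11), Egfl7 (endothelial, 1 of 4), Itgam (haematopoietic, 1 of 5) and Snap25 (neural, 1 of 9), lower for Acta1 (muscle, 1 of 6, though that list's median was 1.21), and by limma for 0 of 5 adipocyte and bone markers (1 higher at an unadjusted p under 0.05). The summed haematopoietic level was 32.1 to 91.1 in treated and 13 to 23.9 in untreated Atf4-null cells, against 35.3 to 36.4 in treated and 59.2 to 90.3 in untreated eIF2a A/A cells. The summed neural level was 30.5 to 83.9 in treated and 24.6 to 26.1 in untreated Atf4-null cells, against 46.1 to 46.5 in treated and 74.3 to 100 in untreated eIF2a A/A cells. Their part in the results was not tested.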

How the data were processed

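RNA of 24 mouse embryonic fibroblast samples in 10 groups was measured on 1-colour Agilent arrays. Images were read in Agilent Feature Extraction (version 10.7.1.1), per the submitters' processing notes. Each deposited file is 1 array's output with a processed signal, an intensity that is background-subtracted and detrended but not normalized between arrays, per the file headers, with median spot and local background intensities and flags. The authors' deposited log2 table agrees within 0.001 with the log2 scanner values for 99.3% of values once a constant per probe and a shift per array are taken out, so its scale and direction are those of the scanner values. Its column medians run from -0.32 to 0.49, and the baseline of its centring is unknown.

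Of 55681 probes, 26631 had 1 gene symbol and 29050 none. A probe took a symbol where its accession in the array design matched exactly 1 gene in RefSeq. The brightest probe stood for a gene (4563 tested genes have more than 1 probe), and a gene was tested if, in any of the 10 groups, no array was short of the scanner's well-above-background flag, which left 14459 of 20170. Levels are log2 values after dividing each processed signal by the 75th percentile on its own array. limma 3.58.1 (R 4.3.3) fitted all 24 arrays with 10 group means and a term for scan run 2 (13 residual and 2.23 prior degrees of freedom). Tests are two-sided, with Benjamini-Hochberg adjustment within a contrast over all genes tested and a threshold of 0.05. The script was tested on simulated data.

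The members, gene lists and classes were chosen with earlier results of these data known. By the rule for named genes, a gene has a called difference, no overlap of treated and untreated arrays in the responding genotype and a probe above background on all 8 arrays, taken by size (12, 10, 8 and 6 genes for the 4 one-genotype classes, 4 per direction for opposite and for unequal responses, the 6 largest with a like AP call, 4 as bounds), besides a fixed panel of stress genes, Atf4, Eif2s1 and the 2 largest called members of each list. Comparisons with the wild type of the same slides, the 30-gene and 15-gene subsets, the histone and snoRNA host families and the sterol and E2F motifs were added after the values were seen. The number of arrays limits precision, and 0 spots were saturated. Alternatives were normexp background, quantile scaling, the deposited log2 table, other filters, other probe rules, other samples in the fit, array weights, a replicate block, slide as a random block, and each array left out. Some genes that the rule names are not reported here.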

Additional observations from a re-analysis of the deposited data

Results flagged for a closer look

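The difference of responses itself was called for 1831 genes, of which 707 responded higher to tunicamycin in Atf4-null than in eIF2a A/A cells and 1124 lower.

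The wild-type response differed between its 2 scan runs (run 2 minus run 1, limma, adjusted p under 0.05) for 15 of the 107 genes chosen by rule, of which 14 are given here, and for 1139 of all 14459 genes (7.88%). Lower in run 2 were cholesterol genes, with Msmo1 at -2.37 and Idi1 at -2.22. Rdh11 was lower by the same measure at -1.46, Chac1 at -1.84, Hsph1 at -0.83 and Kdelr2 at -0.57. Higher in run 2 were Prl3c1 at 2.87, Dgat2 at 2.07, Atf3 at 1.91, Fam83f at 1.82, Igfbp6 at 1.49, Egfl7 at 1.29, P3h4 at 1.05 and Ppp1r15a at 0.80. These values are log2 differences over 2 arrays per group and run, and wild-type values are given for each run.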

How the results depend on the processing

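Of the 107 named genes, 98 of the 99 called ones kept their direction in every alternative that gave them a value (18 or 19 of them) and 24 their call. Direction turned for Ppp1r15a (-0.03), Hspa5 (-0.07) and Eif2s1 (-0.02) with normexp background, for Eif2s1 without untreated Atf4-null replicate 1 (-0.04; 0.42 without replicate 2), none of them called, and for Slc36a1 (0.17) with the mean of its probes. In the following, counts are given in the order difference higher, difference lower, Atf4-null response, eIF2a A/A response, Atf4-null only rise and fall, and eIF2a A/A only rise and fall, whose values in the report are 707, 1124, 4195, 708, 305, 877, 75 and 38. With only the 8 arrays they were 133, 152, 2227, 135, 46, 93, 9 and 8. With array weights per scan run (0.257 for run 1, 1.334 for run 2 and 2.915 for run 3) they were 341, 692, 1041, 5661, 90, 335, 53 and 23. Under these weights more eIF2a A/A than Atf4-null responses were called, the reverse of the unweighted fit. Normexp background gave 443 eIF2a A/A calls and 676 Atf4-null only rises, no filter on dim probes 49 eIF2a A/A only rises, and the wild type split by run 63 eIF2a A/A only falls. Leaving out 1 array at a time gave 308 to 1238 higher and 495 to 2080 lower differences, 2418 to 5424 Atf4-null calls, 174 to 1034 eIF2a A/A calls, 128 to 697 Atf4-null only rises, 392 to 1672 falls, 14 to 101 eIF2a A/A only rises and 12 to 74 falls. The highest differences came without untreated Atf4-null replicate 1, and the lowest without untreated eIF2a A/A replicate 1. The causes were not tested.

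Replicate numbers did not pair the arrays: deviations of same-numbered arrays correlated at 0.07 in Atf4-null and 0.06 in eIF2a A/A cells. With the replicate block the 8 counts were 483, 775, 3552, 347, 227, 607, 33 and 21. The number of arrays limits every value, dim probes are the least certain, and slide and treatment cannot be told apart in Atf4-null cells.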
